A study of Homo sapiens with 12 samples.

Results

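The subunits of SWI/SNF and the catalytic or signature subunits of the other chromatin remodellers were followed in human colorectal cancer cells given an siRNA against BRG1. The set was a fixed list of 45 gene symbols, 28 of SWI/SNF and 17 of the ISWI, CHD, INO80, SRCAP, EP400 and ATRX families, and for each the array feature with the highest mean was taken. The list was chosen with earlier results of these data known, so its shares beside those of all genes may not be independent of the data. Of the 45, 42 were among the 17687 named genes tested, all 28 SWI/SNF genes with them. CHD2, EP400 and SRCAP were not analysed here. The samples were DLD1 siBRG1, DLD1 siControl, HCT 116 siBRG1 and HCT 116 siControl, with 3 arrays in each group. DLD1 and HCT 116 are established lines grown from human colorectal carcinomas, and the siControl cells had received a control siRNA. Neither the siRNA sequences nor the time after transfection is known here, and nothing says that replicate arrays hold separate cultures, so p-values measure the spread between these arrays, which may be technical. In 4 HCT 116 samples the source name gives another number for the line or the siRNA, so samples were grouped by their titles, and the SMARCA4 level of every array went with its title.

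SWI/SNF complexes use the energy of ATP to slide or evict nucleosomes, and so open enhancers and promoters to transcription factors. Each complex holds 1 ATPase, BRG1 (from SMARCA4) or BRM (from SMARCA2), together with subunits of which some are shared and others define the assemblies known as BAF, PBAF and non-canonical BAF (ncBAF). The core subunits counted here are those of BAF and PBAF, and ncBAF lacks SMARCB1 and SMARCE1. ISWI remodellers space nucleosomes evenly, CHD proteins include the motor of the NuRD repressor complex, and the work of INO80 and SRCAP involves the histone variant H2A.Z.

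Values are log2 levels on the scale the authors deposited. Array medians lay between 6.36 and 6.50, and correlations across all features were 0.988 to 0.994 within a group. Of the 42 genes, 34 lay above the array median on every array, as did 8096 of all 17687 genes. ACTL6B, BICRA and DPF3 lay below it on every array. The median level was 9.96 over the 42 genes and 6.86 over all genes. The shares of all genes given below are not matched for level, and the part of level in them was not tested. The median SD within a group was 0.24 over the 42 genes and 0.28 over all genes. Of 9 colorectal epithelial markers, EPCAM, CDH1, KRT8, KRT18, KRT19 and CDX2 lay above the array median on all 12 arrays, and VIL1, CDX1 and LGALS4 lay below it on all of them. The mean level of the epithelial markers was 11.5 to 11.7 in DLD1 siBRG1, 11.5 to 11.8 in DLD1 siControl, 10.2 to 10.3 in HCT 116 siBRG1 and 10.2 to 10.6 in HCT 116 siControl. Markers of fibroblasts, immune and endothelial cells averaged between 3.73 and 5.09 on every array, and COL1A2 alone of them lay above the median on all 12. CD68, a macrophage marker, lay above it on the 3 HCT 116 siBRG1 arrays (mean 7.05, against 5.76 in HCT 116 siControl), and its part in the HCT 116 results was not tested. In such bulk RNA, fewer cells that express a gene and less of its RNA per cell cannot be told apart.

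The siRNA lowered its target. SMARCA4 (Entrez gene 6597) was at 6.29, 6.55 and 6.31 in DLD1 siBRG1, against 10.31, 9.95 and 10.29 in DLD1 siControl. In HCT 116 it was at 6.78, 6.39 and 7.03 in siBRG1, against 10.12, 10.15 and 9.59 in siControl. No siBRG1 array overlapped a siControl array in either line, and 3 of the 6 siBRG1 arrays lay below their own array median. The change was −3.80 in DLD1 (SE 0.21, limma adjusted p = 4.56e-07), 13.9-fold on this scale, and −3.22 in HCT 116 (SE 0.21, limma adjusted p = 1.14e-06), 9.32-fold. The HCT 116 change minus the DLD1 change was 0.58, with a 95% interval of −0.07 to 1.23, and did not pass (limma adjusted p = 0.631). An exact 2-sided permutation of array labels gave p = 0.1 in each line and p = 0.005 over both, in each case the smallest value these numbers of arrays allow.

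SMARCA2 (Entrez gene 6595), for BRM, did not change past the test in either line. It was at 6.89, 7.38 and 6.69 in DLD1 siBRG1, against 7.87, 7.48 and 6.73 in DLD1 siControl. HCT 116 siBRG1 had 4.56, 4.14 and 4.55, against 4.51, 5.67 and 5.25 in HCT 116 siControl. The groups overlapped in both lines, and every HCT 116 array held SMARCA2 below its array median. The 95% interval of the change was −1.06 to 0.30 in DLD1 and −1.41 to −0.05 in HCT 116 (limma adjusted p = 0.778 and 0.206), so a rise of more than 0.30 lay outside both.

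**Figure D1:**
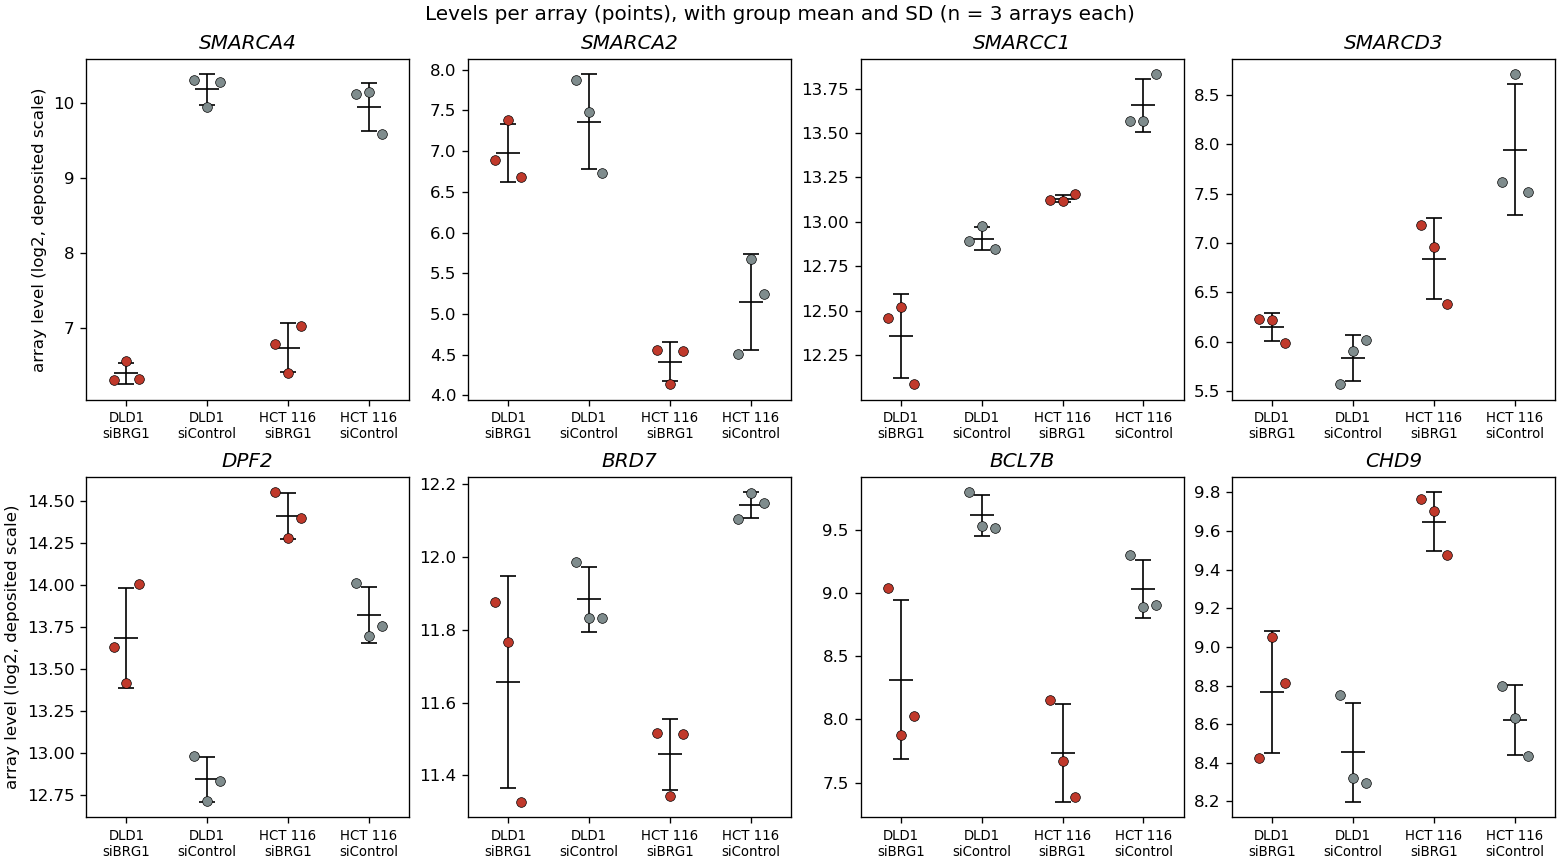
Log2 level on each array (points) of SMARCA4, SMARCA2 and the 6 other genes whose change passed the test in HCT 116 or on average over both lines, with the group mean and SD (n = 3 arrays each), siBRG1 in red and siControl in grey; each panel has its own vertical axis, which does not start at 0. SMARCA4 falls by 3.80 in DLD1 and 3.22 in HCT 116, and BCL7B, at a mean of 8.32 against 9.62 in DLD1 and 7.74 against 9.03 in HCT 116, shows the largest fall after it.

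In the fit without a block, SMARCA4 was the one gene called in DLD1, and 4 others were called in HCT 116. With the replicate number as a block, taken to pair the DLD1 arrays, 2 of the 42 were called in DLD1, BCL7B being added. Over all genes the DLD1 calls were then 98, against 35 without the block. In DLD1 limma called 1 of the 42 genes, SMARCA4 itself, at an adjusted p under 0.05, where 0.198% of all genes were called (0.0678% higher and 0.13% lower), and 10 of the 42 had an unadjusted p under 0.05 (23.8%, against 10.5% of all genes). Without SMARCA4, limma called none of the other 41 in DLD1, and 9 had an unadjusted p under 0.05. In HCT 116 it called 5, 4 lower (SMARCA4, BCL7B, SMARCD3 and BRD7) and 1 higher (CHD9), against 6.95% of all genes (2.82% higher and 4.13% lower). Those 5 are 11.9% of the 42. Leaving out SMARCA4, the target of the siRNA, 4 of the other 41 were called in HCT 116 (9.76%). Without siBRG1 replicate 3 the count of members was 2, and 3 without siControl replicate 2 or siBRG1 replicate 2. Over all genes the HCT 116 calls, 499 higher and 731 lower, became 615 higher and 565 lower with arrays centred on their medians, and their total of 1230 became 618 to 675 without siControl replicate 2 or 3 or siBRG1 replicate 2 or 3. Averaged over both lines limma called 6, 4 lower (SMARCA4, BCL7B, SMARCC1 and BRD7) and 2 higher (DPF2 and CHD9), 14.3% of the 42 against 8.68% of all genes (4.01% higher and 4.68% lower). Leaving out SMARCA4, 5 of the other 41 were called in the average (12.2%). In the fit without a block, SMARCA4 was the 1 gene of the 42 called in the same direction in both lines, as were 0.0961% of all genes. Without regard to the test, the siBRG1 arrays of DLD1 all lay above the siControl arrays for 4 of the 42 and all below for 6, against 8.33% and 7.19% of all genes (15.5% in either direction). In HCT 116 they lay above for 5 and below for 15, against 11.9% and 13% of all genes (24.9% in either direction). Leaving SMARCA4 out, these are 9 of 41 in DLD1 (22%) and 19 of 41 in HCT 116 (46.3%). Without SMARCA4 the median change of the other 41 was −0.0033 in DLD1 and −0.14 in HCT 116, beside medians of 0.01 and −0.01 over all genes.

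For the HCT 116 change minus the DLD1 change limma called none of the 42 genes, against 0.334% of all genes (0.158% higher and 0.175% lower in HCT 116), and 5 had an unadjusted p under 0.05 (11.9%, against 8.99% of all genes): SMARCD3, BAZ1A, CHD9, ACTL6B and SMARCA1. With arrays centred on their medians the all-gene calls of this contrast were 40 higher and 19 lower in HCT 116, against 28 and 31 as deposited. No alternative setting called any of the 42 either. A call in HCT 116 that is missing in DLD1 is therefore not shown to be a difference between the lines.

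For 4 of the 5 genes other than SMARCA4 that were called on average over both lines, the sequence before the transcription start is shown so that those that fell and those that rose can be read side by side. SMARCC1, the fifth, is named only. RefSeq (GRCh38.p14) gives a promoter window for 36 of the 45 genes, and the 250 bases before the start were read on the gene's strand. Capitals mark matches on either strand to 5 motifs. The letters searched were TATAAA for the TATA box and, for the CCAAT box, the letters of its name. The GC box was searched as GGGCGG and the ETS site as CCGGAAG. For the AP-1 site the letters were TGANTCA. A capital run that does not read as these letters is a match on the other strand. BCL7B, which fell, has starts on the minus strand of chromosome 7, shown as BCL7B start 1 (chr7:73557237-73557486) and BCL7B start 2 (chr7:73557691-73557940). BRD7, which fell, lies on the minus strand (chr16:50368989-50369238). DPF2 (chr11:65333602-65333851) and the most upstream of the 4 starts of CHD9 (chr16:53054741-53054990), which rose, lie on the plus strand.
BCL7B start 1: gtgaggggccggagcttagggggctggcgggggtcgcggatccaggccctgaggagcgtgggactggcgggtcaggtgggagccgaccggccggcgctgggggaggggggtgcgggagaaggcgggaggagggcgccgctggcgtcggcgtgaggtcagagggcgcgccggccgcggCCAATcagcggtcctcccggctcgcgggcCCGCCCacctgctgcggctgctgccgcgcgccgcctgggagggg
BCL7B start 2: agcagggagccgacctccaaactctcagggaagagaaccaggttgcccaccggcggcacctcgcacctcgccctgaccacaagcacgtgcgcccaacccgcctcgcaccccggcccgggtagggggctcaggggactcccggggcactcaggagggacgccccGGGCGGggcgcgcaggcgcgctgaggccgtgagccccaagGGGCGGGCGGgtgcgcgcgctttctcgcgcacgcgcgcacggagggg
BRD7: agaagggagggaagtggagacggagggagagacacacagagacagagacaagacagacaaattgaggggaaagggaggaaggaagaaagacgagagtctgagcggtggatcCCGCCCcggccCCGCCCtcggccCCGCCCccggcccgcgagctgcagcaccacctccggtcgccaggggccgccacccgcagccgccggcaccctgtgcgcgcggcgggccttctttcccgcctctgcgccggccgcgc
DPF2: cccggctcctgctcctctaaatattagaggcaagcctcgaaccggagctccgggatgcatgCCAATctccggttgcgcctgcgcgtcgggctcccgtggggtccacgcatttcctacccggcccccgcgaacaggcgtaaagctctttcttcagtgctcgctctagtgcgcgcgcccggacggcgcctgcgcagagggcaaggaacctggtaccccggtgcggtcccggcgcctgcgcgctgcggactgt
CHD9: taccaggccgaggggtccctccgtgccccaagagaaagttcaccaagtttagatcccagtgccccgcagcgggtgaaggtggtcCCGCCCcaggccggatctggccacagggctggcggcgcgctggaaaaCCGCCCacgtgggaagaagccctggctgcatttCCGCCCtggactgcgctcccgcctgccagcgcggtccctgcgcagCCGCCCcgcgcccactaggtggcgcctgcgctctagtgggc
GC boxes stood in both BCL7B windows, in BRD7 with 3 matches and in the CHD9 window shown with 4, and not in DPF2, whose single match was a CCAAT box. The other 3 CHD9 windows, in order along the gene, held 1, 0 and 0 GC boxes and 74.8%, 34.8% and 47.2% G and C. In BCL7B start 2 a pair of GC boxes overlap. Both a gene that fell and a gene that rose thus held GC boxes. A GC box stood in 42.6% of all 35116 windows and in 64.3% of the 56 windows of the listed genes, a CCAAT box in 32% and 30.4%, and a TATA box in 10.7% and 5.36%. The ETS letters stood in 8.52% and 7.14% and the AP-1 letters in 6.57% and 1.79%. The 5 windows printed here held 67.6% to 79.6% G and C. A match is only a run of letters, and no binding was measured.

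Among the core subunits, SMARCC1 was lower in both lines. SMARCC1 (Entrez gene 6599) encodes BAF155, a scaffold on which the complex assembles. It was at 12.46, 12.52 and 12.09 in DLD1 siBRG1, against 12.89, 12.98 and 12.85 in DLD1 siControl. HCT 116 siBRG1 had 13.12, 13.12 and 13.16, against 13.57, 13.57 and 13.83 in HCT 116 siControl. Neither line had an overlap between its groups. SMARCC1 fell on average by 0.54 (SE 0.12, limma adjusted p = 0.0138), which is 1.45-fold, while neither line passed alone (−0.55 in DLD1 and −0.52 in HCT 116, limma adjusted p = 0.225 and 0.0834). The HCT 116 change of SMARCC1 passed when only genes above the median level were fitted (limma adjusted p = 0.0395) and with a trended robust prior (limma adjusted p = 0.0365).

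SMARCD3 (Entrez gene 6604), for BAF60C, a core subunit known from heart and muscle, was at 7.18, 6.96 and 6.39 in HCT 116 siBRG1, against 7.62, 8.71 and 7.52 in HCT 116 siControl. The groups did not overlap, and SMARCD3 fell by 1.10 (SE 0.29, limma adjusted p = 0.0324). That call ended when each line was fitted alone (limma adjusted p = 0.0953) and without any of 3 single arrays. Without siControl replicate 2, the highest of the 3, the change was −0.72 (limma adjusted p = 0.133), and without siBRG1 replicate 2 or 3 it was −1.16 or −0.88 (limma adjusted p = 0.0725 and 0.148). In DLD1 SMARCD3 lay below the array median on all 6 arrays, at 6.23, 6.22 and 5.99 in siBRG1, against 5.57, 5.91 and 6.02 in siControl. The difference of the changes between the lines was −1.42 (SE 0.41, limma adjusted p = 0.21).

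All 7 core subunits had a negative change in HCT 116, with a median of −0.42, and in 6 of them the siBRG1 arrays all lay below the siControl arrays, where 13% of all genes did so. With arrays centred on their medians, all 7 changes were still negative, 4 did not overlap and the list median was −0.36; after a further quantile normalization it was 7, 5 and −0.42. Of the 7, SMARCD3 passed the test and 6 did not, among them SMARCE1 (BAF57, with an HMG domain; −0.42, limma adjusted p = 0.141) and SMARCB1 (SNF5; −0.48, limma adjusted p = 0.328). In DLD1 none of the 7 passed, 3 changes were negative and 4 positive, and the median was 0.12. SMARCC2, SMARCD1 and SMARCD2 had changes of 0.12, 0.19 and 0.20 in DLD1 and −0.35, −0.20 and −0.22 in HCT 116, none past the test.

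Of the subunits that define BAF, DPF2 moved upward. DPF2 (Entrez gene 5977) encodes BAF45D, whose PHD fingers read modified histone H3. It was at 13.63, 13.42 and 14.01 in DLD1 siBRG1, against 12.98, 12.71 and 12.83 in DLD1 siControl. In HCT 116 it was at 14.55, 14.28 and 14.40 in siBRG1, against 14.01, 13.69 and 13.75 in siControl. Every siBRG1 array exceeded every siControl array of its line. DPF2 rose on average by 0.72 (SE 0.13, limma adjusted p = 0.00486), which is 1.64-fold, with changes of 0.84 in DLD1 and 0.59 in HCT 116 that did not pass alone (limma adjusted p = 0.102 and 0.078). The DLD1 change of DPF2 passed with a trended robust prior (limma adjusted p = 0.0274) and with array weights (limma adjusted p = 0.0443). Its HCT 116 change passed with the replicate block (limma adjusted p = 0.0394) and when only genes above the median level were fitted (limma adjusted p = 0.0406). It also passed in HCT 116 with a trended robust prior (limma adjusted p = 0.0277) and with array weights (limma adjusted p = 0.0316).

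ARID1A and ARID1B, the alternative DNA-binding subunits of BAF, had changes of 0.16 and 0.09 in DLD1 and of 0.21 and 0.25 in HCT 116, none past the test. Their groups overlapped in both lines. The 95% intervals ran from −0.32 to 0.64 in DLD1 and −0.27 to 0.70 in HCT 116 for ARID1A, and from −0.41 to 0.58 in DLD1 and −0.24 to 0.74 in HCT 116 for ARID1B. DPF1 and DPF3, paralogs of DPF2 known from neurons and from heart and muscle, had changes of 0.49 and 0.00 in DLD1 and of −0.08 and −0.48 in HCT 116, none past the test.

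Of the subunits that define PBAF, BRD7 (Entrez gene 29117), a bromodomain protein, fell in HCT 116. It was at 11.52, 11.34 and 11.51 in HCT 116 siBRG1, against 12.10, 12.18 and 12.15 in HCT 116 siControl. The groups did not overlap, and BRD7 fell by 0.68 (SE 0.18, limma adjusted p = 0.0301), 1.61-fold. The call ended when arrays were centred on their medians (−0.62, limma adjusted p = 0.0622), and without siControl replicate 2 or 3 or siBRG1 replicate 1, 2 or 3 (changes of −0.71 to −0.63, limma adjusted p of 0.0529 to 0.108).

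In DLD1 BRD7 was at 11.88, 11.77 and 11.33 in siBRG1, against 11.99, 11.83 and 11.83 in siControl, with overlap and a change of −0.23 (limma adjusted p = 0.75). On average over both lines BRD7 fell by 0.46 (SE 0.12, limma adjusted p = 0.0348), a call that ended after centring (limma adjusted p = 0.0525) and in 8 of 12 fits that left out 1 array. ARID2, the PBAF counterpart of the ARID1 proteins, was at 10.19, 10.78 and 10.65 in DLD1 siBRG1, against 10.17, 10.10 and 10.14 in DLD1 siControl (change 0.40, limma adjusted p = 0.46). HCT 116 siBRG1 had 11.33, 11.36 and 11.33 for ARID2, against 10.97, 11.32 and 11.32 in HCT 116 siControl (change 0.14, limma adjusted p = 0.759), groups that did not overlap by a narrow margin. PBRM1, a protein with several bromodomains, had changes of −0.15 in DLD1 and −0.14 in HCT 116, and PHF10, with PHD fingers, of 0.19 and −0.34. None of these passed.

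None of the ncBAF subunits passed in either line. BRD9, the bromodomain subunit of that assembly, had changes of −0.27 in DLD1 and −0.16 in HCT 116. BICRA and BICRAL, the alternative scaffolds of ncBAF, had changes of −0.17 and 0.47 in DLD1 and of −0.17 and −0.03 in HCT 116.

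BCL7B showed the largest change after SMARCA4. BCL7B (Entrez gene 9275) belongs to a family of small accessory subunits, with BCL7A and BCL7C, that sit beside the ATPase. It was at 9.04, 7.88 and 8.03 in DLD1 siBRG1, against 9.80, 9.53 and 9.52 in DLD1 siControl. In HCT 116 it was at 8.15, 7.67 and 7.39 in siBRG1, against 9.30, 8.89 and 8.91 in siControl. All siBRG1 arrays lay below all siControl arrays of their line, and DLD1 siBRG1 replicate 1 was nearest to the controls.

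BCL7B fell on average over both lines by 1.30 (SE 0.20, limma adjusted p = 0.00148), which is 2.46-fold. In HCT 116 it fell by 1.30 (SE 0.28, limma adjusted p = 0.0125), a call that ended without siBRG1 replicate 3 (−1.12, limma adjusted p = 0.0636). In DLD1 the change was also −1.30 (SE 0.28) but did not pass (limma adjusted p = 0.0914). With the replicate number as a block, taken to pair the DLD1 arrays, it did (limma adjusted p = 0.0329), as it did without DLD1 siBRG1 replicate 1 (−1.66, limma adjusted p = 0.0104). The difference of the changes between the lines was 0.00, with a 95% interval of −0.84 to 0.85.

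The paralogs of BCL7B did not share its change. BCL7A had changes of −0.0033 in DLD1 and −0.05 in HCT 116, and BCL7C of 0.08 and −0.02, none past the test. The 95% intervals of BCL7A and BCL7C ran from −0.35 to 0.34 in DLD1 and −0.39 to 0.30 in HCT 116 for BCL7A, and from −0.39 to 0.55 in DLD1 and −0.48 to 0.45 in HCT 116 for BCL7C, and the change of −1.30 seen for BCL7B lay outside all of them. SS18, the subunit fused to SSX proteins in synovial sarcoma, had changes of −0.33 in DLD1 and −0.58 in HCT 116 (limma adjusted p = 0.64 and 0.103). Its HCT 116 groups did not overlap, at 12.77, 12.43 and 12.51 in siBRG1, against 13.12, 13.23 and 13.11 in siControl. SS18L1, its neuronal paralog, had changes of −0.25 and 0.33, and the actin-like ACTL6A (BAF53A) of −0.02 and −0.08, none past the test. ACTL6B, the actin-like subunit of neurons, lay below the array median on every array and had changes of −0.27 and 0.45, neither past the test.

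**Figure D2:**
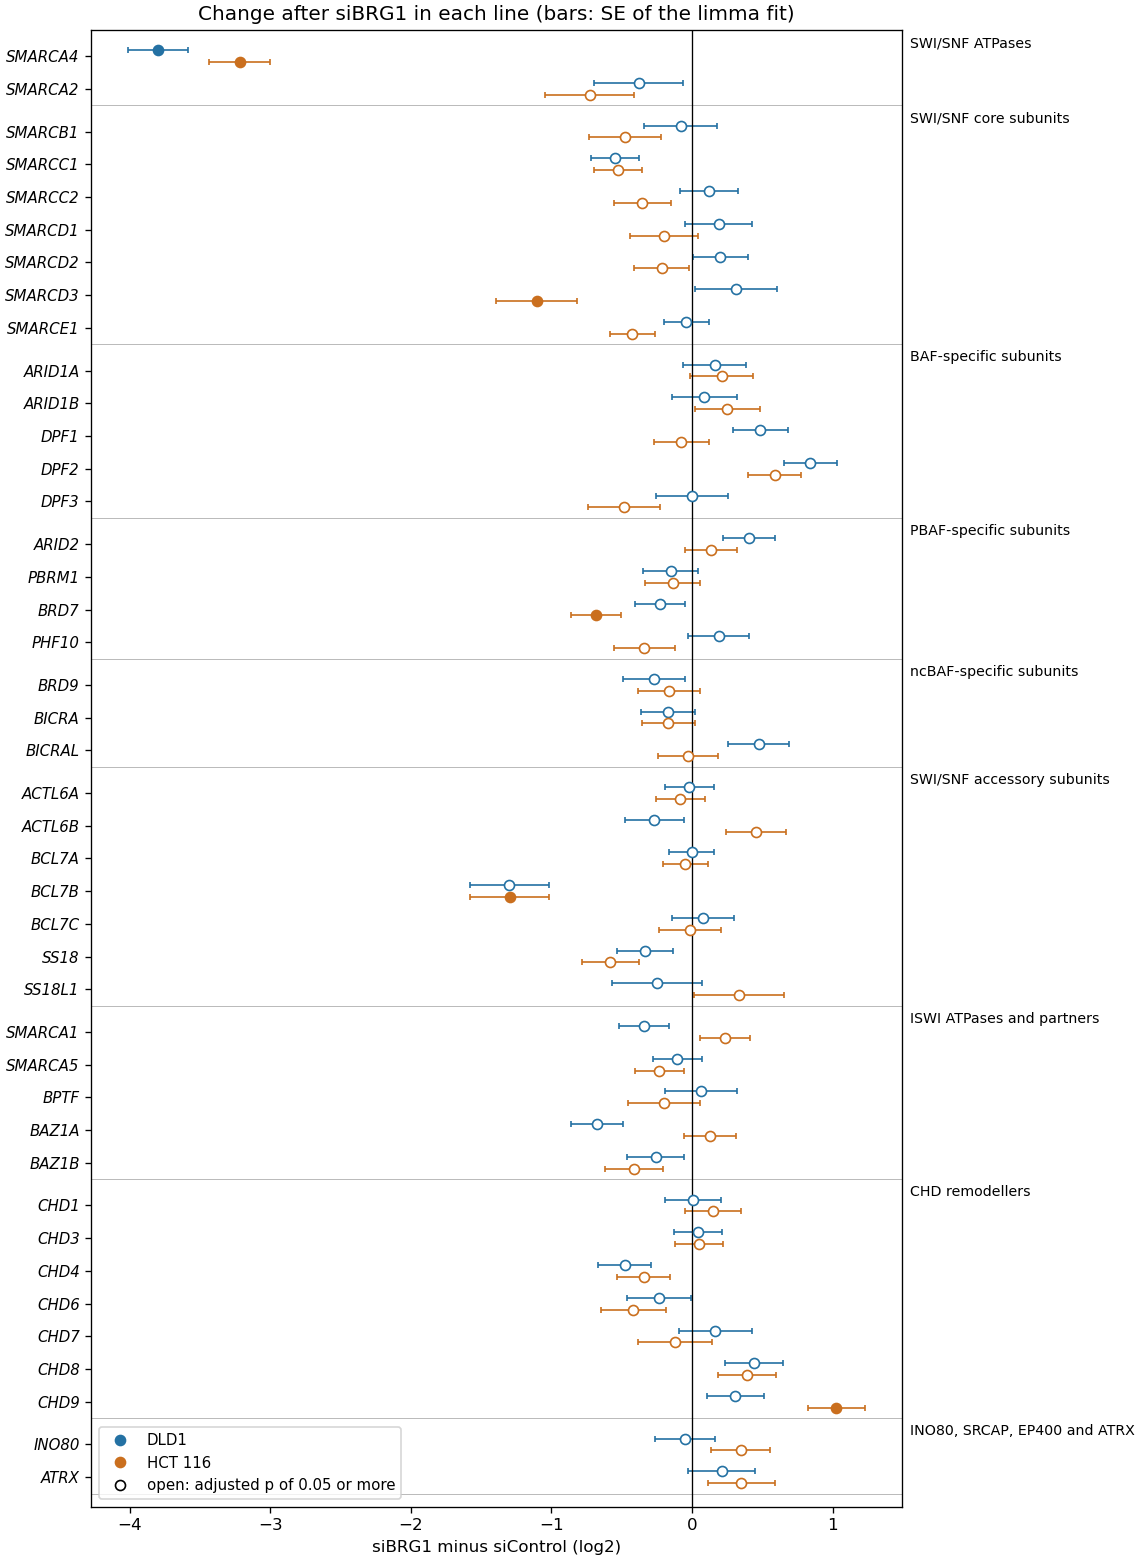
Change after siBRG1 (siBRG1 minus siControl, log2; horizontal bars, SE of the limma fit) of the 42 measured genes in DLD1 (blue) and HCT 116 (orange), grouped by role, with filled points for genes called at an adjusted p under 0.05. SMARCA4 is filled in both lines; BCL7B, SMARCD3 and BRD7 on the left and CHD9 on the right are filled in HCT 116, and the other points are open.

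Among the remodellers outside SWI/SNF, CHD9 rose in HCT 116 and the other 13 genes did not pass in either line. CHD9 (Entrez gene 80205) is a chromodomain helicase related to CHD7 and CHD8. It was at 9.77, 9.70 and 9.48 in HCT 116 siBRG1, against 8.80, 8.63 and 8.43 in HCT 116 siControl. The groups did not overlap, and CHD9 rose by 1.03 (SE 0.20, limma adjusted p = 0.00775), 2.04-fold, a call that stood in all 12 fits that left out 1 array. In DLD1 CHD9 was at 8.43, 9.05 and 8.81 in siBRG1, against 8.75, 8.32 and 8.29 in siControl, with overlap and a change of 0.31 (limma adjusted p = 0.686). The difference of the changes was 0.72 (SE 0.29, limma adjusted p = 0.45).

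CHD8, which represses Wnt target genes, had changes of 0.44 in DLD1 and 0.39 in HCT 116, and CHD7, mutated in CHARGE syndrome, of 0.17 and −0.12. CHD4, the motor of NuRD, was at 9.62, 9.82 and 9.52 in DLD1 siBRG1, against 10.50, 9.91 and 9.99 in DLD1 siControl. HCT 116 siBRG1 had 10.46, 10.29 and 10.62, against 10.76, 10.86 and 10.79 in HCT 116 siControl. The CHD4 groups did not overlap in either line, and its average change was −0.41 (limma adjusted p = 0.0743). That average change was called with array weights and when only genes above the median level were fitted. CHD1, CHD3 and CHD6 had changes of 0.01, 0.04 and −0.23 in DLD1 and of 0.15, 0.05 and −0.42 in HCT 116, none past the test.

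In all, 6 of the 42 genes had groups that did not overlap, in the same direction, in both lines, where 5.09% of all genes did so. The 6 include SMARCA4, the target of the siRNA. SMARCA4, SMARCC1, BCL7B and CHD4 were lower, and DPF2 and ARID2 were higher. For ARID2 the margin was narrow in both lines. Its lowest siBRG1 and highest siControl arrays were at 10.19 and 10.17 in DLD1 and at 11.328 and 11.324 in HCT 116. ARID2 and CHD4 are given per array because of this count, after their values were seen.

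No ISWI gene passed in either line. BAZ1A, the ACF1 partner of the ISWI ATPase, was at 9.67, 9.74 and 9.83 in DLD1 siBRG1, against 10.27, 10.28 and 10.71 in DLD1 siControl (change −0.67, limma adjusted p = 0.168). In HCT 116 BAZ1A had a change of 0.13 with overlapping groups. SMARCA5 (SNF2H), the ISWI ATPase of most cell types, had changes of −0.11 in DLD1 and −0.23 in HCT 116. BPTF, the reader subunit of the NURF complex, had changes of 0.06 and −0.20, and BAZ1B, deleted in Williams syndrome, of −0.26 and −0.41. INO80 had changes of −0.05 and 0.35 and ATRX, which deposits histone H3.3 with DAXX, of 0.21 and 0.35, none past the test.

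Of 61 genes listed that work with these remodellers or belong to the same enzyme family, 58 were measured, and in DLD1 none passed in limma, with 8 at an unadjusted p under 0.05 (13.8%, against 10.5% of all genes). In HCT 116 limma called 1 of the 58 higher and none lower (1.72%, against 6.95% of all genes), with 14 at an unadjusted p under 0.05 (24.1%, against 20.4% of all genes). That gene was RSF1, a histone chaperone that pairs with SMARCA5. RSF1 was at 11.29, 11.54 and 11.27 in HCT 116 siBRG1, against 9.73, 10.44 and 10.41 in HCT 116 siControl, and rose by 1.17 (SE 0.26, limma adjusted p = 0.0143). None of 9 NuRD partners, 12 INO80 subunits, 16 SRCAP and TIP60/EP400 subunits or 13 other SNF2-family ATPases and DAXX passed in either line. The median changes of these 4 lists lay between 0.01 and 0.10 in DLD1 and between −0.10 and −0.04 in HCT 116. Averaged over both lines limma called 4 of the 58, all higher, 6.90% of them beside the 8.68% of all genes.

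The control cells of the lines differed in many of these genes. Between HCT 116 siControl and DLD1 siControl limma called 18 of the 42 genes, 13 higher in HCT 116 and 5 lower, which is 42.9% of them against 27.6% of all genes (13.6% higher and 14% lower). These shares are not matched for level, which was higher for the 42 genes (median 9.96, against 6.86 over all genes). SMARCA4 did not differ past the test between the control lines (−0.23, 95% interval −0.69 to 0.22, limma adjusted p = 0.491).

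The largest fitted difference among the 42 was that of SMARCA1 (Entrez gene 6594), which encodes SNF2L, the second ISWI ATPase, best known from the brain. It was at 11.14, 10.98 and 11.21 in HCT 116 siControl, against 4.27, 4.33 and 3.92 in DLD1 siControl. All DLD1 arrays lay below their array median, and with no detection calls in the files it is not known whether SMARCA1 was above background there. Its DLD1 siControl levels lay among the mean levels of the fibroblast, immune and endothelial markers (3.73 to 5.09). The fitted difference was 6.94 (SE 0.18, limma adjusted p = 4.72e-13), which is no exact ratio where one side may be background. After siBRG1 it was at 11.48, 11.32 and 11.24 in HCT 116 and at 3.65, 3.83 and 4.01 in DLD1, and its change passed in neither line (limma adjusted p = 0.516 and 0.555). SMARCA5, its paralog, was at 13.34, 13.43 and 13.46 in HCT 116 siControl, against 13.34, 13.07 and 13.16 in DLD1 siControl, a difference of 0.22 that did not pass (limma adjusted p = 0.417).

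SMARCA2 ran the other way, lower in HCT 116 siControl than in DLD1 siControl by 2.22 on the log2 scale (fitted difference −2.22, SE 0.32, limma adjusted p = 6.65e-05). The HCT 116 levels lay below the array median and at or near those marker levels, so the same limit holds for SMARCA2. SMARCD3 was higher in HCT 116 by 2.11 (SE 0.29), BPTF by 1.61 (SE 0.26), DPF1 by 1.32 (SE 0.20) and BICRAL by 1.28 (SE 0.22), with limma adjusted p of 4.39e-05, 1.81e-04, 8.95e-05 and 3.12e-04. On all DLD1 siControl arrays SMARCD3 and DPF1 lay below the array median. When only genes above the median level were fitted, SMARCA2, SMARCD3 and DPF1 were left out. SMARCD2, ARID2, DPF2, BRD9, SMARCC1, CHD4, SS18 and SMARCE1 were also higher in HCT 116, by 1.22 down to 0.61. PBRM1, ACTL6A, CHD6 and CHD3 were lower in HCT 116, with differences from −1.12 to −0.61. Of the 7 core subunits, 4 were higher in HCT 116, none was lower and 3 did not pass. Of the PBAF subunits, ARID2 was higher and PBRM1 lower in the same cells. The calls of SS18, CHD3, CHD4 and CHD6 ended in 2 or 3 of the 12 fits that left out 1 array.

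**Figure D3:**
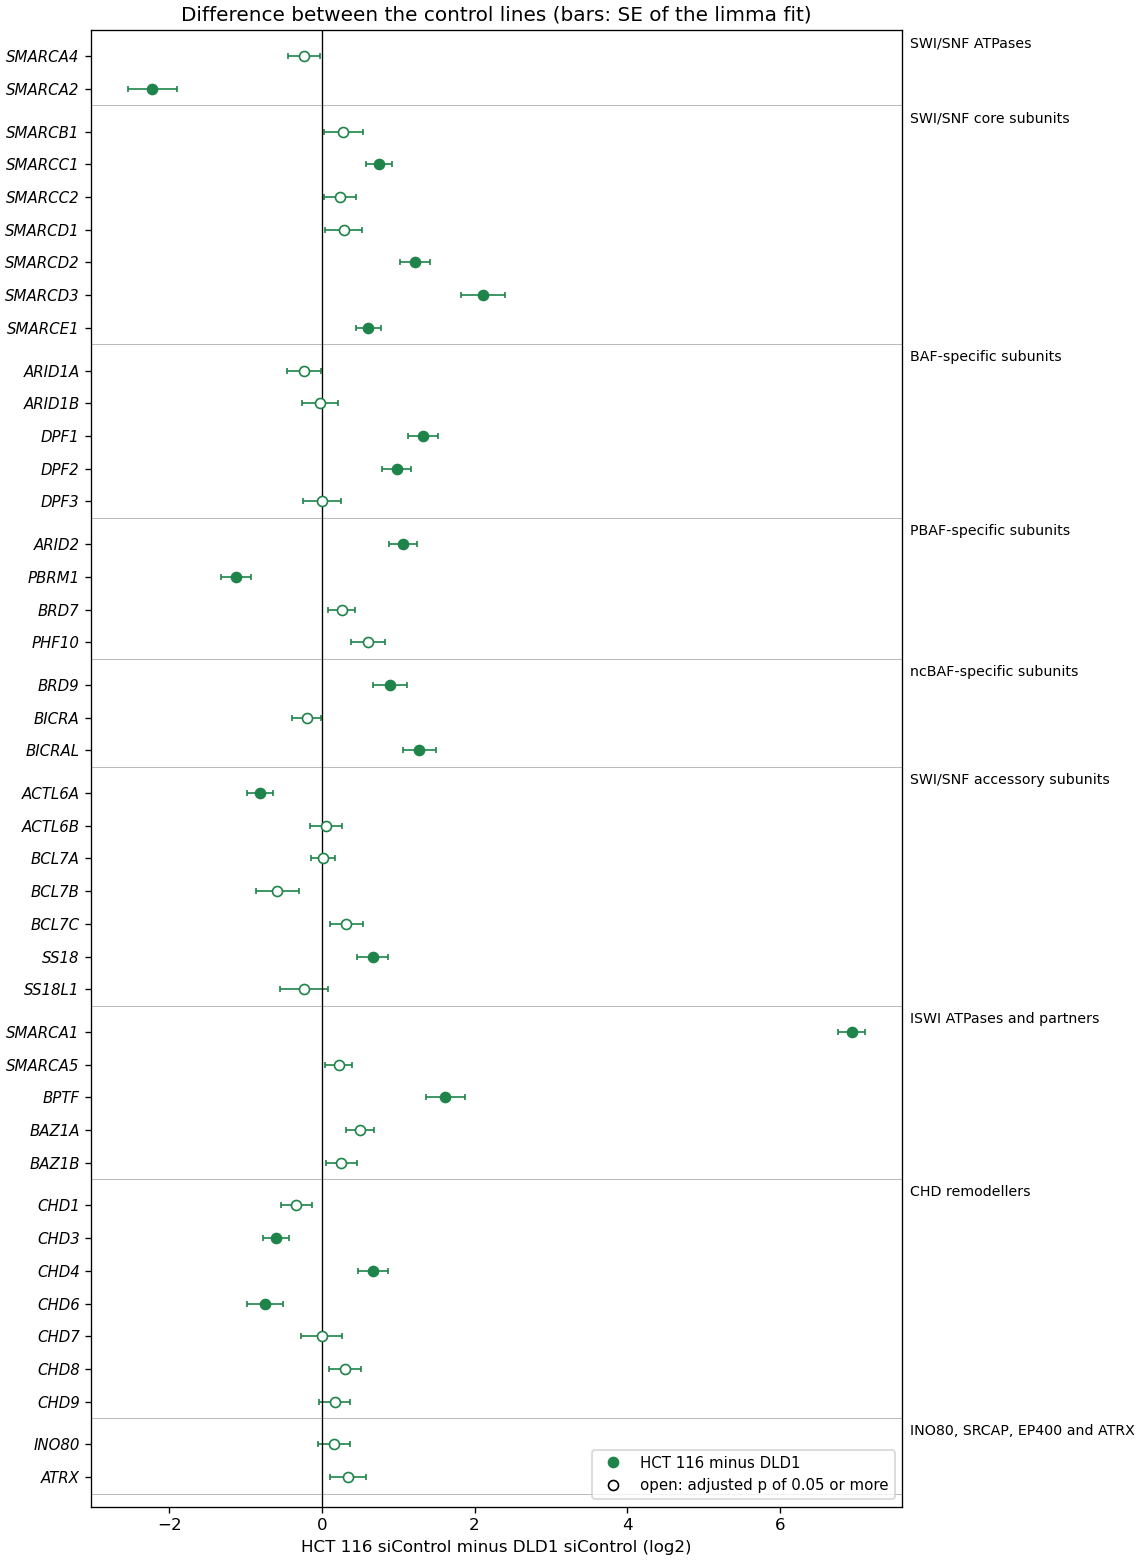
HCT 116 siControl minus DLD1 siControl (log2; horizontal bars, SE of the limma fit) for the 42 measured genes, grouped by role, with filled points for genes called at an adjusted p under 0.05. SMARCA1 stands alone at 6.94, SMARCA2 lies furthest to the left at −2.22, and 18 points are filled.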

How the data were processed

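RNA of 12 samples was measured on Affymetrix arrays, 3 per group. The authors deposited log2 values, and the submitters' processing notes name RMA and Affymetrix Power Tools. Their versions and the genome build were not given in the sources used here, and the table holds no detection calls. Some values exceed 16, the limit of a scanner's log2 intensity, so a further step, not named, may have followed RMA. Of 21448 features, 17709 had 1 gene symbol, giving 17687 genes at the feature with the highest mean.

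Group means were fitted to all 12 arrays with limma 3.58.1 in R 4.3.3 (lmFit, eBayes), and p-values were adjusted (Benjamini-Hochberg) over all genes. "Called", "rose" and "fell" mean an adjusted p under 0.05, the test for each printed adjusted p. The average contrast is the mean of both lines' changes. By rule, SMARCA4, SMARCA2 and genes called in a line were described per array, and those called in the average, the 6 with the largest difference between control lines and others of each role by contrast; per-array values of SMARCC1, DPF2, ARID2, CHD4, SS18, BAZ1A, SMARCA1 and SMARCA5, and contrasts of the remaining genes, were added after their values were seen. Members and lists were chosen with earlier results of these data known.

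Deviations of same-numbered arrays correlated at 0.485, 0.459 and 0.291 in DLD1, all over 0.1, and those of differently numbered arrays at −0.374 to −0.0301. The numbers were therefore taken to pair the DLD1 arrays, and the main fit does not use this pairing. In HCT 116 the correlations were 0.299, 0.149 and 0.0284, not all over 0.1, so a pairing is not shown there and not excluded. The labels state no pairing. The fit was tested on simulated data. Alternatives were the replicate block, separate fits per line, further quantile normalization, median centring, a level filter, feature means, a trended robust prior, array weights, a threshold of 0.01 and leaving out each array.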

Additional observations from a re-analysis of the deposited data

How the results depend on the processing

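SMARCA4 was called in both lines under every alternative run. In DLD1, where 1 of the 42 genes was called, 2 were called with the replicate block (BCL7B added), 2 with a trended robust prior (DPF2 added) and 3 with array weights (both added), and 1 to 2 when 1 array was left out, the 2 being without siBRG1 replicate 1. In HCT 116, where 5 were called, 8 were called with a trended robust prior (DPF2, SMARCC1 and SMARCE1 added), 8 with array weights (DPF2, SMARCA2 and SS18 added) and 2 at an adjusted p under 0.01 (SMARCA4 and CHD9). The level filter gave 6 in HCT 116 (DPF2 and SMARCC1 added), and SMARCD3 was not tested there because the filter removed it. Leaving out 1 array gave 2 to 5 in HCT 116, with 3 called without siControl replicate 2 or without siBRG1 replicate 2, and 2 called without siBRG1 replicate 3. The replicate number is not shown to pair the HCT 116 arrays. As a block it gave 6 there (DPF2 added) and 8 for the average of both lines (CHD8 and SS18 added). For that average, where 6 were called, 3 were called at an adjusted p under 0.01 (SMARCA4, BCL7B and DPF2), and 5 to 8 when 1 array was left out. Array weights gave 9 for the average (CHD4, CHD8 and SS18 added), and the level filter gave 8 (CHD4 and SS18 added). Between the control lines, where 18 were called, the alternatives gave 13 to 21, and the block, nested in the lines, could not be fitted. The difference of the changes was near 0 for BCL7B and SMARCC1 and changed sign, at −0.22 to 0.36 for BCL7B and −0.11 to 0.11 for SMARCC1 when 1 array was left out, and at −0.0706 for BCL7B and −0.014 for SMARCC1 without both HCT 116 arrays numbered 1, a setting chosen after seeing the data. The cause was not tested. Over all genes, calls in DLD1 were 35, with 4 when each line was fitted alone, 98 with the replicate block, 128 with array weights and 7 to 66 when 1 array was left out. In HCT 116 they were 1230, with 418 at an adjusted p under 0.01, 2123 with the replicate block and 2035 with array weights. Leaving out 1 array gave 618 to 1271 in HCT 116, and the split of 499 higher and 731 lower became 615 and 565 after centring. For the average they were 1536, with 494 at an adjusted p under 0.01 and 2476 with the replicate block. Array weights gave 2306 for the average, and leaving out 1 array gave 797 to 1593. For the difference of the changes they were 59, with 16 at an adjusted p under 0.01, 162 with array weights and 26 to 71 when 1 array was left out. Between the control lines they were 4884, and the alternatives gave 3372 to 5584. With 3 arrays per group and no detection calls, small changes and low levels are measured with limited precision.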
